A study of Mus musculus with 2 samples.

Results

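Gata4, Tbx5 and Isl1, which encode transcription factors of the developing heart, were the nearest genes of 8 of the 668 regions that the authors listed as enriched for 5-hydroxymethylcytosine (5hmC). Their rows were taken by gene name from the deposited list: 3 for Gata4, 4 for Tbx5 and 1 for Isl1. The genes were chosen by values of the list itself, since their windows had been seen to differ in CpG, repeat, distance, motifs and score. Those features are therefore described and not tested. The list came from 1 library of DNA pulled down with a polyclonal antibody to 5hmC (hMeDIP, immunoprecipitation of hydroxymethylated DNA), set against 1 library of total input DNA. Both libraries came from R1 mouse embryonic stem cells, an established line without any labelled genetic change, which had been kept in 2i medium on gelatin and then cultured as embryoid bodies in medium with KnockOut serum, under atmospheric oxygen, up to day 3. DNA from 3 biological samples had been mixed before the pull-down, so each group is 1 library without replicate error, and no test of the enrichment itself could be made. Embryoid bodies are mixtures, and few cells with much 5hmC cannot be told apart from many cells with little. The data hold no RNA measurement, so whether these cells expressed the 3 genes, or any marker of their lineage, is not known from the data.

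5hmC is made by the TET enzymes from 5-methylcytosine, most of which lies at CpG in mammalian DNA, and it is known as an intermediate of demethylation and as a mark of active and poised regulatory sequence. Gata4 is a zinc finger protein that binds GATA sequences and acts in primitive and definitive endoderm as well as in the heart. Tbx5 is a T-box factor of the first heart field and the forelimb, and Isl1 is a LIM homeodomain factor of second heart field progenitors and motor neurons. Gata4 and Tbx5 are known to act together on cardiac promoters.

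The 3 Gata4 windows and the 5 windows of Tbx5 and Isl1 were of different kinds. The Gata4 windows lay together just upstream of a Gata4 start, outside repeats, and each held CpG. Those of Tbx5 and Isl1 lay in satellite or telomere-type repeats 52.2 to 567 kb from the start and held no CpG. Each region was deposited as a window of 51 bp, whereas the sheared fragments were 200 to 1000 bp long. CpG, GC content and repeats are therefore those of the window and do not describe all of the DNA pulled down. Whether CpG lay in the bases beside a window was not examined. Part of the bases of a window can be read from the motif matches listed beside it, and runs of them are shown here. All are the plus strand of GRCm38. Capitals mark CpG in the Gata4 runs and, in the Tbx5 runs, alternating CA or TG over at least 6 bases.
Gata4, 2592 bp upstream, chr14:63247848-63247855: tgtgCGtt
Gata4, 2592 bp upstream, chr14:63247857-63247870: ccaggagCGgggag
Gata4, 3063 bp upstream, chr14:63248311-63248318: tgtaCGta
Tbx5, 52191 bp upstream, chr5:119782449-119782492: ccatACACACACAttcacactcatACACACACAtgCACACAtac
Tbx5, 63145 bp upstream, chr5:119771498-119771509: ctgtctctgtct
Tbx5, 54988 bp downstream, chr5:119889629-119889674: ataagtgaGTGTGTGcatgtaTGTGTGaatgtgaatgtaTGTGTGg
Tbx5, 90513 bp downstream, chr5:119925154-119925201: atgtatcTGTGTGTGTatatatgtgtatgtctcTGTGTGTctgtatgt

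The Gata4 window nearest to the start and the Isl1 window had no motif match, and no bases are shown for them. The bases shown are those that a motif matched, so they are not a random sample of a window. In the Gata4 runs, each of the 3 stretches held 1 CpG. Of these, 2 were matches to TGTACGTT, a motif that itself contains a CpG, so that count is partly set by the motif. In the Tbx5 window at 52191 bp upstream, 28 of 43 neighbouring base pairs in the run were AC or CA. The runs at 54988 and 90513 bp downstream were of the opposite strand, with GT or TG at 25 of 45 and 26 of 47 neighbouring pairs. The short run at 63145 bp upstream had GT or TG at 4 of 11 pairs and no stretch in capitals. Among the 92 windows of the list in this satellite, AC and CA were more frequent among the known bases in 49 and GT and TG in 41, so both orientations were common.

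**Figure D1:**
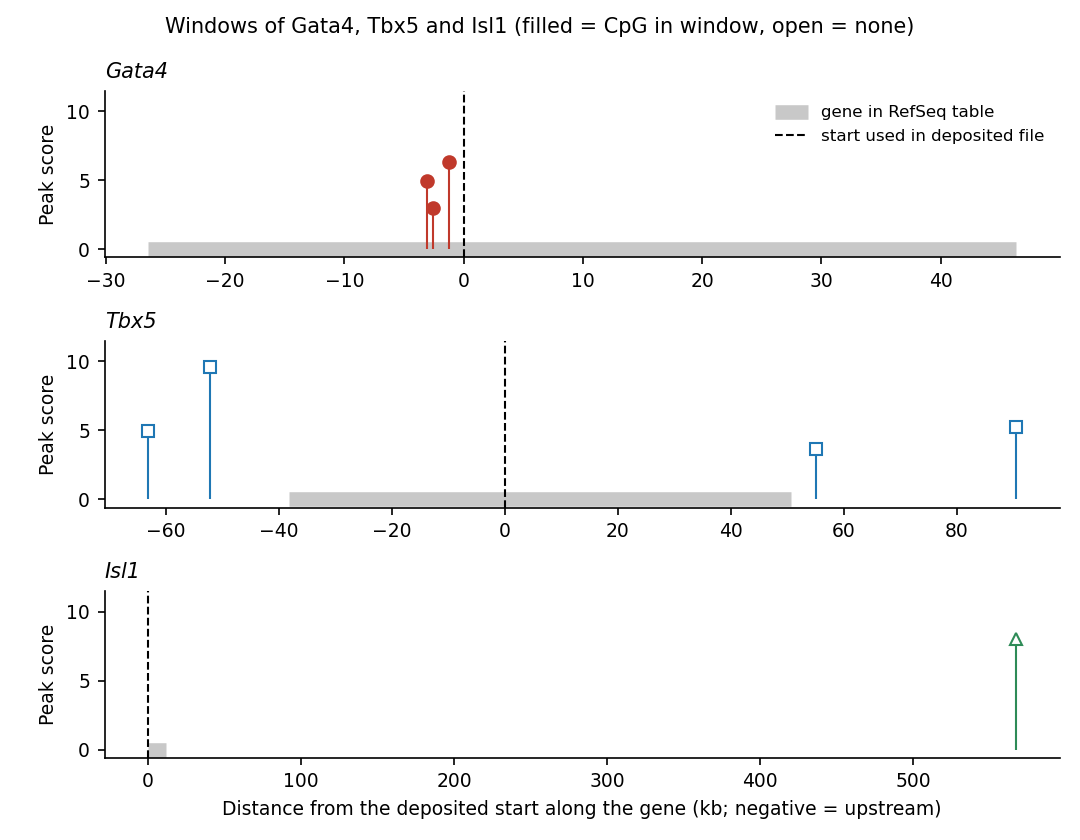
Peak score (vertical axis) of each window against its distance in kb from the start that the deposited file used, read along the gene, for Gata4, Tbx5 and Isl1. The 3 filled Gata4 points sit between -3063 and -1249 bp and inside the grey bar, the extent of the gene in the RefSeq table, whereas the open points of Tbx5 and Isl1 lie outside their genes' bars.

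At Gata4 the windows fell within 1865 bp on chromosome 14 (GRCm38), from 63246484 to 63246534, from 63247827 to 63247877 and from 63248298 to 63248348. They lay 1249, 2592 and 3063 bp upstream of the start of NM_008092, at position 63245260 by the deposited distances. The first 2 windows were 1343 bp apart and the last 2 were 471 bp apart, a distance within the 200 to 1000 bp of the sheared fragments, so neighbouring windows need not be separate enriched segments. The deposited annotation called all 3 intergenic. In the RefSeq table of GRCm38.p6, however, Gata4 runs from 63198914 to 63271712, 26.5 kb beyond that start at the 5′ side, and all 3 windows lay inside the gene, 25.2, 23.9 and 23.4 kb from its 5′ end. The table lists 4 Gata4 transcripts, 2 of them curated, and gives no exons, so exon and intron were not assigned. By distance, all 3 Gata4 windows were within 5 kb of a start, against 0 of the 5 windows of Tbx5 and Isl1 and 8.83% of the whole list.

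The Gata4 windows held 2, 3 and 3 CpG in the order of their distance from the start, whereas the 4 Tbx5 windows and the Isl1 window held none. At least 1 CpG was present in 15.9% of the 668 windows and 3 or more in 1.20%. Of the 8 windows with 3 or more CpG, 2 were at Gata4. The window at 1249 bp upstream was the only one of 668 whose detailed annotation read CpG, a label that stands for a CpG island in common annotation tools and is not explained in the file, and the other 2 Gata4 windows had no such label. All 3 Gata4 windows lay outside annotated repeats, as did 16.0% of the list.

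GC content was 56.9%, 58.8% and 43.1% in the Gata4 windows at 1249, 2592 and 3063 bp upstream. In the Tbx5 windows it ran from 35.3% to 43.1%, and in the Isl1 window it was 51.0%. The median of all windows was 43.1%. With bases in random order and C and G taken as equally frequent, the GC content of the 3 Gata4 windows would give 10.7 CpG. In them 8 were present, a ratio of 0.748. The same calculation gave 11.2 CpG for the 5 windows of Tbx5 and Isl1, which held 0. The longer Tbx5 runs and the CCCTAA unit hold mostly C or mostly G on a strand, so that number is too high for them. Over the whole list the ratio was 0.0888, and over the 107 windows outside repeats it was 0.145. The same limit applies there, since 80.7% of the list matched a motif of alternating CA or TG. These ratios therefore do not measure a lack of CpG beyond base content. By window, the Gata4 ratios were 0.495, 0.694 and 1.29 in the same order of distance, so the window with the lowest GC had the highest ratio. That window and the Tbx5 window 63145 bp upstream had the same GC content of 43.1% and the same score of 4.95, yet held 3 and 0 CpG. Of the 68 windows of the list with this GC content, 17 held a CpG and the Gata4 window was the only one with 3.

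**Figure D2:**
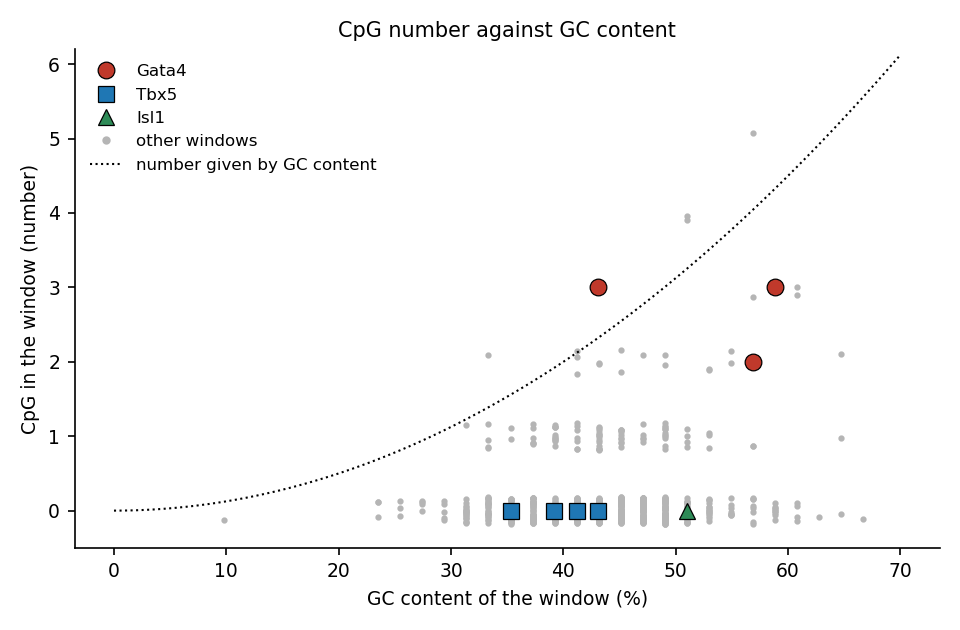
Number of CpG in each 51-bp window (vertical axis, grey points spread slightly for visibility) against its GC content in percent, for Gata4, Tbx5, Isl1 and the other windows. The Gata4 points lie at 2, 3 and 3 CpG, and the Tbx5 and Isl1 points at 0. The dotted line is the number that GC content gives with bases in random order and C and G equally frequent.

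In matches to motifs of alternating CA or TG, the Tbx5 windows stood on one side and those of Gata4 and Isl1 on the other. The deposited file lists matches to 15 motifs, on both strands and with mismatches. None of the 3 Gata4 windows matched any of the 3 motifs of alternating CA or TG (ACACACACAC, ACACACACACAC and GTGTGTGT, which overlap one another), whereas all 4 Tbx5 windows matched at least 1 and the Isl1 window matched none. Of the whole list, 80.7% matched 1 or more of these motifs. The motif TGTACGTT, which contains a CpG, matched 5 windows of 668, and 2 of the 5 were at Gata4, 2592 and 3063 bp upstream. The other 3 matches are shown beside the Gata4 matches given above, with CpG in capitals.
Tiam2, chr17:3441637-3441644: tgtaCGgt
1700108J01Rik, chr14:122238460-122238467: tgtgCGtt
Slc39a11, chr11:113514552-113514559: tgtgCGtt

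The 1700108J01Rik and Slc39a11 matches had the same 8 bases as the Gata4 match at 2592 bp, in a TG repeat 4.84 kb and in no repeat 51.3 kb from the start. The Tiam2 match lay in IMPB_01 satellite, 40.7 kb upstream. The Gata4 window at 2592 bp also matched CCTCTCCTGG, which was found in 4 windows, and was the only one of those 4 with a CpG. It further matched CCCCCCCC, found in 74 windows (11.1%). A motif match describes letters in the window and does not show that a protein binds there.

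Tbx5 had 4 windows over 154 kb of chromosome 5, from 119771493 to 119771543, from 119782447 to 119782497, from 119889626 to 119889676 and from 119925151 to 119925201. Relative to the start of NM_011537 at 119834663, the first 2 were 63.1 and 52.2 kb upstream and the last 2 were 55.0 and 90.5 kb downstream. In the RefSeq table Tbx5 begins 38.1 kb before this start, at 119796514, and ends at 119885220. The windows therefore flanked the gene and none lay in it: 25.0 and 14.0 kb before its first base, and 4.43 and 40.0 kb after its last. The upstream pair lay on the side of Tbx3, a T-box repressor of the cardiac conduction system and limb, whose nearest end was 86.8 and 97.7 kb away. A predicted noncoding gene of the table, Gm42017, was 12.9 and 1.99 kb from these windows. On the other side, Rbm19, the next protein-coding gene for the window 90.5 kb downstream, was 191 kb from it.

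All 4 Tbx5 windows were annotated as IMPB_01, a tandem satellite that held 92 windows of the list nearest to 86 genes. A CpG was present in 14 of these 92 (15.2%) and a motif of alternating CA or TG in 89. On chromosome 5 there were 12 IMPB_01 windows, 4 of them at Tbx5. Of the 11 genes with 3 or more windows, Tbx5 and Psmd7, which encodes a proteasome subunit, had every window in IMPB_01. Within 1 Mb of the Tbx5 start the list held 2 windows of other genes. One was at Rbm19 (chromosome 5, 120099017 to 120099067), 264 kb from the Tbx5 start, and was also IMPB_01 without a CpG, with a score of 9.60. The other was at 4930413E15Rik, 963 kb away, outside repeats and with a score of 3.22.

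The single Isl1 window (chromosome 13, 115742251 to 115742301) lay in a CCCTAA repeat 567 kb downstream of the start of Isl1, which was at 116309688 in the file and in the RefSeq table alike. The distance ranked 14 of 668 from the longest. It was 556 kb from the nearest end of the gene, and no other protein-coding gene of the table was nearer, the next being the integrin gene Itga1 at 640 kb. The nearest entry of any kind was the pseudogene Gm18135 at 28.7 kb. No other window of the list lay within 1 Mb of the Isl1 start. CCCTAA and its reverse complement TTAGGG, the unit of telomere repeats, held 14 windows, of which 1 had a CpG and 1 a motif of alternating CA or TG. The other 13 of these windows lay 1.09 to 521 kb from a start, with a median of 76.4 kb against 36.1 kb for the whole list. Of these 13, 1 was within 5 kb, 9 were within 100 kb and 2 were more than 500 kb away, as were 20 of the 668 (2.99%).

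Peak scores did not separate the genes. The score is the authors' value for each region, on a scale that the sources used here do not name, and it only ranks regions within the list. Gata4 scored 6.35, 2.96 and 4.95 at 1249, 2592 and 3063 bp upstream. Tbx5 scored 4.95, 9.60, 3.65 and 5.22 in the order of position along the chromosome, and Isl1 scored 7.99. The values overlapped, with medians of 4.95 for Gata4, 5.22 for the 5 windows of Tbx5 and Isl1, and 4.95 for the list. Scores at or above the list median were held by 2 of 3 Gata4 windows and 4 of 5 Tbx5 and Isl1 windows, against 61.5% of the list. Ties were frequent: 117 windows had the score of 4.95 found once at Gata4 and once at Tbx5, and 88 had the 6.35 of the first Gata4 window. From the top of the list, the Gata4 windows stood at 121, 604 and 295, the Tbx5 windows at 295, 22, 520 and 230 along the chromosome, and the Isl1 window at 40, with tied windows sharing a place. Within their own class by score, the Tbx5 windows ranked 43, 2, 71 and 33 of 92 IMPB_01 windows along the chromosome. The Isl1 window ranked 5 of 14 telomere-type windows. The Gata4 windows ranked 20, 97 and 41 of 107 outside repeats, in the order of distance from the start.

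**Figure D3:**
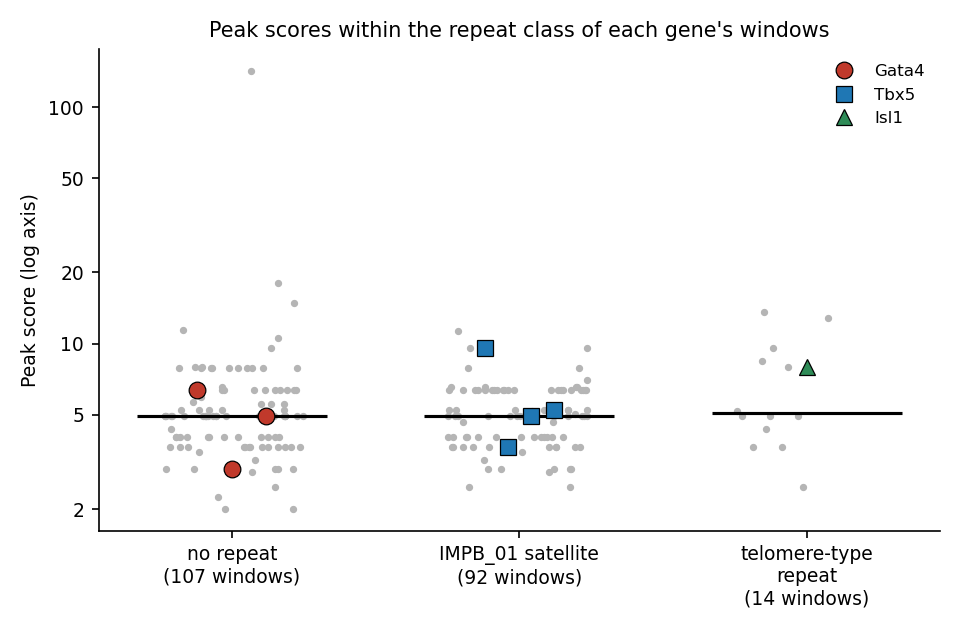
Peak score (logarithmic axis) of every window outside repeats, in IMPB_01 satellite and in telomere-type repeats, with the median of each class as a line and the windows of Gata4, Tbx5 and Isl1 marked. Gata4 scores of 2.96 to 6.35 and Tbx5 scores of 3.65 to 9.60 spread to both sides of the class medians of 4.95, and the Isl1 score of 7.99 lies above the telomere-type median of 5.07.

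Windows of other genes were called alike when they matched in 4 features: the repeat name or its absence, presence of CpG, class of distance (up to 5 kb, up to 100 kb, beyond) and presence of a motif of alternating CA or TG. The Gata4 windows had 2 such counterparts. They were the promoter windows of Pgk1, a glycolytic gene (score 4.95, 3 CpG, 0.110 kb upstream), and of B230319C09Rik, which lies at the Tet3 promoter and was the highest of the list (score 142, 3 CpG, 0.146 kb from the start). Unlike these, no Gata4 window was annotated as a promoter. The Tbx5 windows had 51 counterparts at 51 genes, so their combination of features was common in the list. Of these, 19 had exactly the CpG number and the score of a Tbx5 window. The first 6 of the 19 by name were windows near Asap2 (score 5.22, 88.6 kb), Axl (4.95, 16.7 kb), Cd109 (4.95, 86.2 kb), Cers4 (5.22, 15.6 kb), Endou (4.95, 11.6 kb) and G630093K05Rik (9.60, 41.3 kb). The Isl1 window had 2 counterparts under the name CCCTAA. The window near Rbfox1, a neuronal splicing factor gene (chromosome 16, 176 kb), had the same score of 7.99 and the same GC content of 51.0%, and that near Lphn3, an adhesion receptor gene (521 kb), scored 3.65. Windows named TTAGGG, the same repeat on the other strand, were not counted. Those near 1700008P02Rik (score 5.18) and Ikzf2 (score 4.36) were also beyond 100 kb and without a CpG.

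Clusters like that of Gata4 in CpG and repeat were few, but close position alone was not particular to it. Of the 11 genes with 3 or more windows, 3 had all of them within 5 kb. At 2700054A10Rik, 4 windows lay within 2.29 kb, in a CTGTG repeat and without CpG. Gata4 and the pseudogene Pisd-ps1 were the genes of the 11 with a CpG in every window. The 3 Pisd-ps1 windows lay in the major satellite GSAT_MM, and Gata4 was the only one of the 11 with every window outside repeats. Windows with a CpG, no repeat and no motif of alternating CA or TG numbered 9 in the list, and 3 of these were at Gata4. Within 1 Mb of the Gata4 start there was 1 window of another gene, Prss52, 871 kb away in IMPB_01 and without a CpG.

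Of 36 further cardiac transcription factors, Nkx2-6 and Mef2a were the nearest gene of a window. These 2 of 36 are 5.56%, and of the 26220 genes with a curated RefSeq transcript 2.32% were listed, which would give 0.833 of 36. With so few genes the count does not set the list apart. Nkx2-6, a homeobox gene of pharyngeal endoderm and the early heart, had a window in a CCCTAA repeat 9.60 kb upstream with a score of 4.95 and no CpG (chromosome 14, 69162181 to 69162231). It lay in the same repeat as the Isl1 window but much closer to its gene. Mef2a, a MADS-box factor of muscle, had an IMPB_01 window 123 kb upstream with a score of 2.96 and no CpG. Both were of the repeat kinds seen at Isl1 and Tbx5, and neither resembled the Gata4 windows in holding CpG outside repeats.

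The share of 2.32% over all genes gives under 1 listed gene for each of the other lists (0.185 to 0.695), so a list without a window is no result. Among 26 genes of cardiac induction signals Notch1, a receptor of the Notch pathway, was listed, with a TG repeat 29.0 kb upstream (score 5.22, no CpG). None of 30 contractile and membrane genes of cardiomyocytes was listed, the troponin gene Tnnt2 and the myosin gene Myh6 among them. The gene lists are selections and not complete. The muscle genes Casq2 (score 4.95) and Nrap (score 11.3), for example, were on none of them and were each the nearest gene of a window without a CpG. None of the other 16 T-box genes, of the other 8 genes of the GATA list or of 17 further endoderm genes was listed. Of 13 other genes of the LIM homeobox list, Lmx1b and Lhx8 were listed. The Lmx1b window lay in intron 2 of the gene in a TGGA repeat (score 6.35, no CpG), and the Lhx8 window in a TG repeat with 1 CpG, 133 kb from its start and in an intron of Slc44a5 (score 4.04). Of 19 genes that write, read or remove DNA methylation, Mbd2, a reader of methylated CpG, had an IMPB_01 window in an intron with 4 CpG (score 6.35). Tet3 of the same list is not counted, since the nearest start to the window at its promoter (score 142, 3 CpG, no repeat) is that of B230319C09Rik. Across all 8 lists, 6 of 154 further genes were listed (3.90%, against 3.57 genes at the share of all genes). They had 6 windows, of which 2 held a CpG and 0 lay outside repeats.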

How the data were processed

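The deposited table lists regions enriched for 5hmC in the hMeDIP library over the input library, each 1 library of pooled DNA. Libraries were made from 2.5 ng of DNA with 12 PCR cycles and read for 50 cycles, per the labels' protocols. The submitters' processing notes name Bowtie, MACS 1.0.1 and mm9 but give no roles. Calling settings and the annotation tool were not given in the sources used here. The peak score was used as deposited, for ranks only. The deposited CpG and GC columns hold a fraction of the window's dinucleotides or bases, although headed as percent. Signed distances are as deposited. No read counts were used, so depth behind a region is unknown.

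Despite the mm9 note, coordinates were those of GRCm38: 4 windows lay within RefSeq promoter sequences of GRCm38.p6, where GC, CpG and all 67 bases known from motif matches were as in the reference. Bases were rebuilt from the deposited motif matches. The 112630 bases listed had 0 conflicts, and 8 of 8 windows known in full had the deposited GC. Some motif cells end in mid-match, and the incomplete match was not used. Gene bounds came from the RefSeq table. Python 3.11.15 and pandas 2.3.3 were used.

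The 3 genes and the 8 gene lists were chosen with earlier results of these data known. Named genes are the 3 genes, every list gene with a window, and up to 6 counterparts per gene that match in 4 features, by closeness in CpG and then score. Windows of 1 list share both libraries and are not replicates, so no test was made. Alternatives were stricter score thresholds, a limit of 100 kb to the start, merged windows and other ways to assign a gene.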

Additional observations from a re-analysis of the deposited data

How the results depend on the processing

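No paired analysis was possible because each group holds 1 library. With scores at or above the median, or at no less than 2 times the lowest, the same 6 of the 8 windows remained (2 of Gata4, 4 of Tbx5 and Isl1). For these windows the 2 thresholds are therefore 1 check. All windows of Gata4 held a CpG outside repeats and none of Tbx5 and Isl1 did. Thresholds and merging only drop or join these windows, so they could not change that contrast and do not check it. The median distance to the start of Gata4 windows minus that of Tbx5 and Isl1 windows was -60.6 kb, and was -74.7 kb at both thresholds and -61.2 and -61.9 kb with merging. The share of windows that matched a motif of alternating CA or TG differed by -80.0 percentage points, and by -75.0 at both thresholds. The median score of Gata4 minus that of Tbx5 and Isl1 was -0.276, and -0.957 at both thresholds, but 0.425 and 1.13 with windows merged within 1 and 5 kb, where the highest score stands for a locus, so scores give no order of the genes. The 8 windows became 0 when assigned to the gene named in the annotation, which calls all of them intergenic, and 3, all at Gata4, by gene bounds in the RefSeq table, an alternative chosen after seeing the data. Genes listed across the 8 lists, 9 with the 3 genes included, were 3 by the annotation (Lmx1b, Mbd2, Tet3) and 4 by gene bounds, which added Gata4. Unknown depth and single libraries leave the error of each window unmeasured.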
